A study of Mus musculus with 6 samples.

Results

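The genes described here make cholesterol and fatty acids or regulate that synthesis. They are 30 genes listed by symbol, 18 enzymes of the sterol pathway, 6 regulators and carriers and 6 enzymes of fatty acid synthesis, and all 30 are among the 17091 genes of the deposited table. They were measured by bulk RNA sequencing in dissected lateral wall of the cochlea, from inbred CBA/CaJ mice: 3 young animals (2 months) and 3 old animals (2.5 years). Each library pooled both cochleas of 1 mouse, the labels name no treatment and no altered allele, and the groups differ in age alone by their labels. Titles and tissue entries give the lateral wall, but the source entry reads auditory nerve cells for every sample. By its title the study asks how the transcriptome of the tissue changes with age.

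Cells build cholesterol from acetyl-CoA through mevalonate, farnesyl diphosphate, squalene and lanosterol. The transcription factor SREBP-2, from Srebf2, chiefly drives the sterol genes and SREBP-1c, from Srebf1, the fatty acid genes. Scap escorts both precursors out of the endoplasmic reticulum when membrane sterol is low, and the Insig proteins hold Scap back when it is high. The lateral wall holds the stria vascularis, an epithelium with deeply folded membranes that secretes potassium, and the spiral ligament with its fibrocytes.

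SREBP proteins bind sterol regulatory elements, usually next to a CCAAT box bound by NF-Y. The 250 bases before the annotated start were searched on both strands in RefSeq windows of GRCm38.p6, which were found for 24 of the 30 genes. The element TCACNCCAC was present in 1 of the 24 genes (4.17%), and in 1.26% of the 13143 tested genes with a window. The shorter TCACNCCA, which lies inside the longer one, was present in 3 of the 24 (12.5%) and in 4.12% of the tested genes. CCAAT was present in 19 of the 24 (79.2%) and in 39.5% of the tested genes. These are matches of letters, with no binding measured. The 3 genes with TCACNCCA were Hmgcs1, Msmo1 and Srebf2, and all 3 are shown, whatever their expression. Capitals mark TCACNCCA, and each sequence runs 5′ to 3′ on the gene's strand. Hmgcs1 is chr13:119690101-119690350 on the plus strand, Msmo1 is chr8:64733737-64733766 on the minus strand and Srebf2 is chr15:82147019-82147180 on the plus strand. The Msmo1 match lies inside an exon annotated by GENCODE M21, so 30 bases around it are given, and the Srebf2 sequence stops at the base before the GENCODE gene start.
Hmgcs1: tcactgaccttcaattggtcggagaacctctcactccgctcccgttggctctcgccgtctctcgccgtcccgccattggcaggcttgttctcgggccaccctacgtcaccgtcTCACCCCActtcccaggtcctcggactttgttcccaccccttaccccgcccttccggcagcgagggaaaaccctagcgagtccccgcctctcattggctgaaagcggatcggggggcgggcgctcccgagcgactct
Msmo1: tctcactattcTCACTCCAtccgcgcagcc
Srebf2: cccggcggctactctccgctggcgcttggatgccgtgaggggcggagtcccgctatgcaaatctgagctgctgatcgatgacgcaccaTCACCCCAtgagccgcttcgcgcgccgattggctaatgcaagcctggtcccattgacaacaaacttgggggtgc

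The deposited values are read counts divided by a size factor of the library, called normalised read counts here. Reads recovered from them came to 37055355 to 39103398 per library. Old replicate 3 stood apart in Xist, the RNA of the inactive X chromosome, with 45.2 normalised read counts against 24382 to 29162 in the other 5 libraries. The labels give no sex, and values without this library are given for each group of genes and for most genes described by library. Defining markers of the lateral wall were abundant: the 8 marginal cell markers summed to 374224 to 402971 in young and 292942 to 391355 in old, the 8 intermediate cell markers to 244609 to 255876 and 204546 to 305264, and the 8 fibrocyte markers to 1052000 to 1183370 and 463122 to 966875. Single genes gave the largest part of these sums, Dct of the intermediate cell sum and Coch of the fibrocyte sum. The intermediate cell markers Tyrp1 (0.97 to 24.9) and Pmel (32.5 to 71.1) were low in every library. By the limma test described below, the marginal cell marker Atp1b2 (log2 fold change −0.61) and the fibrocyte marker Otos (−1.71) fell. The intermediate cell marker Mlana (1.09) rose. Fold changes were below 0 in 5 of 8 marginal, 3 of 8 intermediate and 7 of 8 fibrocyte markers. Of the 5 basal cell markers, 4 were below 0 and 0 were called by limma. Markers of other cell types also moved with age. The 14 macrophage markers, 10 of which rose and 0 fell by the limma test described below, summed to 36802 to 40108 in young and 66344 to 101559 in old. Gpnmb alone gave 28648.7 to 31474.3 of that sum in young and 39687.6 to 64940.5 in old. Of the 10 neutrophil markers, 2 rose and 0 fell by limma, 9 were called by edgeR and 10 were higher by the authors' deposited table. They summed to 335 to 520 in young and to 5787, 805 and 11286 in old replicates 1, 2 and 3. None of the 9 erythroid markers was called by limma (8 with p under 0.05 before adjustment, 4 called by edgeR, 8 by the authors' deposited table), and they summed to 2895 to 4969 in young and 7145 to 43327 in old. Of the 14 myelinating Schwann cell markers, 1 rose and 0 fell by limma, 2 were called by edgeR and 5 were higher by the authors' deposited table. They summed to 24617 to 27958 in young and 33152 to 47596 in old. Of the bone markers 6 of 8 fell and of the skeletal muscle markers 2 of 9, and 0 rose in either list. None of the 8 adipocyte markers in the table was called by limma (4 with p under 0.05 before adjustment, 1 called by edgeR, and 2 higher and 1 lower by the authors' deposited table), and they summed to 108422 to 140140 in young and 66484 to 129527 in old. Most of that sum is Car3, which fibrocytes express too. The defining adipocyte genes Adipoq and Plin1 were at 0 in at least 1 library each and at 5 or fewer in all. Of the other adipocyte markers, Plin4 had a log2 fold change of −1.42, Fabp4 of 2.21, Lpl of 0.86 and Pparg of 1.11, each with p under 0.05 before adjustment. Their part in the results on synthesis genes was not tested. In bulk tissue, fewer cells of a type and less RNA per cell cannot be told apart.

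Few or none of the 30 synthesis genes were called between old and young lateral wall, depending on the tool: 0 by limma and edgeR, and 2 by DESeq2 and the authors' deposited table. Limma called 0 of 30 at an adjusted p under 0.05 (Benjamini-Hochberg over all genes), where 5.25% of the 17091 genes tested were called, 2.71% higher and 2.55% lower. Of the 30, 3 had an unadjusted p under 0.05, all with lower values in old (Srebf2, Scap and Scd2), or 10% of the 30, against 21.3% of all genes in either direction, 10.8% higher and 10.6% lower. EdgeR on the recovered reads called 0 of 30, against 5% of all genes (2.76% higher, 2.24% lower). DESeq2 called 2, Srebf2 and Scd2, both lower in old (adjusted p = 0.039 and 0.0496), against 10.9% of the genes it gave an adjusted p (5.82% higher, 5.03% lower). The authors' deposited table is DESeq2 output by its name, and the DESeq2 run used reads recovered from it, so they are not independent. The deposited table holds an adjusted p under 0.05 for Srebf2 (0.0391) and Scd2 (0.0497). The same holds for 10.8% of its genes with an adjusted p (5.82% higher, 5.03% lower). Young and old ranges were separate in 4 of the 30 (13.3%), 3 lower and 1 higher in old, against 26.1% of all genes (12.8% lower, 13.2% higher). Without old replicate 3 limma again called 0 of the 30, against 3.57% of all genes. The shares of the 30 genes in either direction lay below those of all genes, and the shares lower in old lay near them.

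The data were precise enough to bound most differences. The 95% interval of the log2 fold change (old minus young, on log2(value + 1)) lay within a 2-fold change in either direction for 28 of the 30 genes, and within a 1.5-fold change for 22. The exceptions to the 2-fold bound were Insig1 (−1.17 to 0.20) and Fasn (−1.09 to 0.04). All 18 sterol enzymes were bounded within 2-fold. The median log2 fold change was −0.09 over the 30 genes, −0.05 over the sterol enzymes, −0.24 over the regulators and carriers and −0.15 over the fatty acid enzymes, beside 0.00 over all genes tested. Fold changes were below 0 in 20 of the 30, against 50.2% of all genes, and in 19 of 30 with quantile normalization or with edgeR. Without old replicate 3 they were below 0 in 14 of 30, and the medians were 0.04 over the 30, 0.09 over the sterol enzymes, −0.14 over the regulators and carriers and −0.13 over the fatty acid enzymes.

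**Figure D1:**
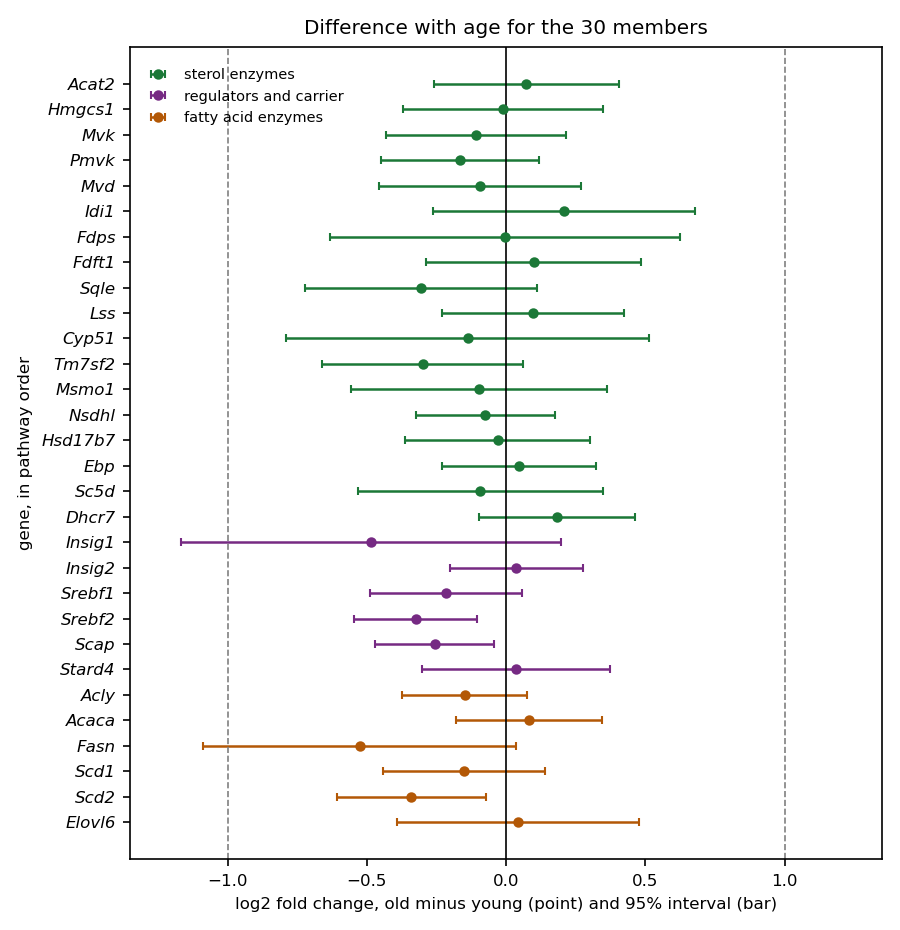
Log2 fold change of each gene, old minus young, with its 95% interval from limma, in pathway order and coloured by group. Dashed lines mark a 2-fold change. Most intervals include 0, those of Srebf2, Scap and Scd2 lie below it, and those of Insig1 and Fasn alone cross the left dashed line.

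Levels of the genes spanned more than 2 orders of magnitude per kilobase of exon, and the 4 highest and 3 lowest genes were in the same order at both ages. Scd2 and Scd1, the stearoyl-CoA desaturases that make monounsaturated fatty acids, stood highest in young mice, with 15285 ± 1174 and 8841 ± 1039 normalised read counts per kilobase (SD, n = 3). Srebf1 followed with 4112 ± 443, Insig1 with 3171 ± 574 and Acly, which splits citrate to give cytosolic acetyl-CoA, with 2514 ± 176. The values of Srebf1 and Insig1 differ by less than the sum of their SDs, and so do those of Insig1 and Acly. Fasn, fatty acid synthase, had 1929 ± 233 and Hmgcs1, which makes HMG-CoA, 1583 ± 309, within their spread of each other. Hmgcs1 was the highest of the sterol enzymes. The lowest 2 of the 30 were Acaca, acetyl-CoA carboxylase, with 99.6 ± 1.02, and Elovl6, which lengthens palmitate, with 65.3 ± 9.04. Scd2 exceeded 99.5% of all genes with a known exon length, and Elovl6 34.8%. Per kilobase, Srebf1 exceeded Srebf2 (1142 ± 89) in young mice, and in old mice the means were 3541 and 911.

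**Figure D2:**
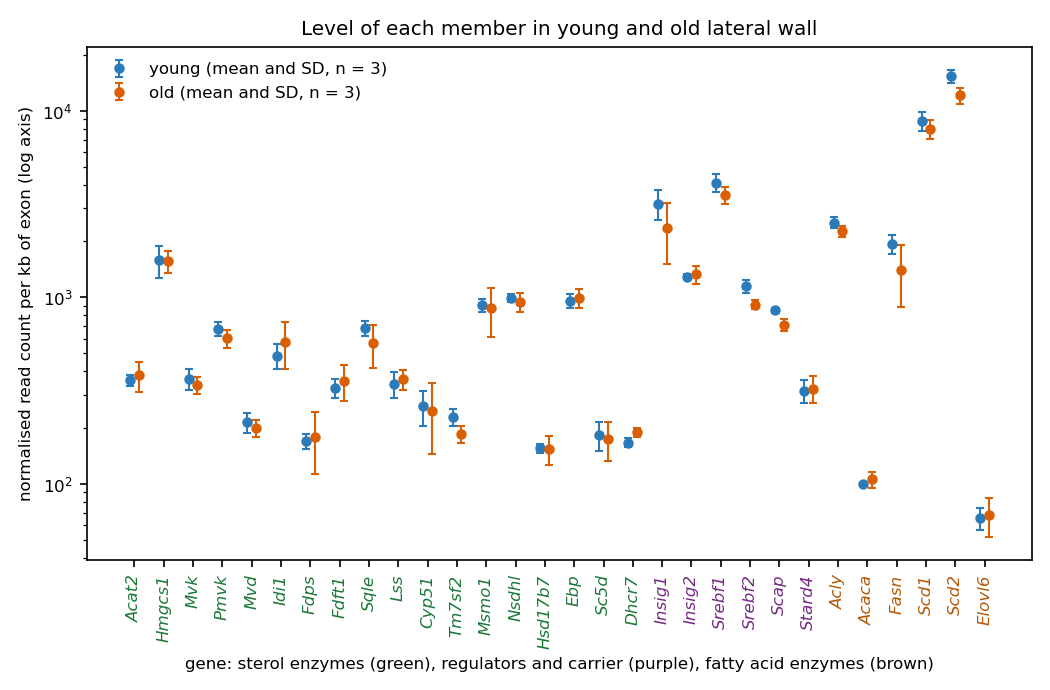
Level of each of the 30 genes as the mean normalised read count per kilobase of exon, on a log axis, in young and old lateral wall (bars: SD, n = 3 each). Scd2 and Scd1 stand highest and Acaca and Elovl6 lowest at both ages.

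The regulators hold 2 of the 3 genes with an unadjusted p under 0.05. Srebf2 (chromosome 15, 82147181 to 82205379) had 5282, 5987 and 6124 normalised read counts in young replicates 1, 2 and 3 and 4892, 4602 and 4375 in old replicates 1, 2 and 3. Every old library lay below every young one. The log2 fold change was −0.33 ± 0.10 (SE), or −20.2%, with a limma adjusted p of 0.0953 and an edgeR adjusted p of 0.102. Without old replicate 3 the log2 fold change of Srebf2 was −0.29 (limma adjusted p = 0.16). Its promoter, shown above, holds TCACNCCA from 162 to 155 bases before the RefSeq start. Scap (chromosome 9, 110333288 to 110384950) had 3456, 3636 and 3691 in young and 2879, 2878 and 3281 in old libraries, again without overlap. Its log2 fold change was −0.26 ± 0.09, or −16.3%, with a limma adjusted p of 0.162. Without old replicate 3 it was −0.32 (adjusted p = 0.0949), so the difference was as large without that library. An unnamed locus overlaps Scap exons on the opposite strand, and whether the libraries keep strand is not stated, so its reads are uncertain.

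Srebf1 and the Insig genes gave wider or smaller differences. Srebf1 (chromosome 11, 60199089 to 60222581), which shares exonic bases with Rai1 on the opposite strand, had 18498, 15498 and 19031 in young and 16846, 15206 and 13612 in old libraries. The groups overlapped, with a log2 fold change of −0.22 ± 0.12 and a limma adjusted p of 0.346. Without old replicate 3 the log2 fold change of Srebf1 was −0.14 (adjusted p = 0.539). Gene counts do not separate the SREBP-1a and SREBP-1c transcripts. Insig1 (chromosome 5, 28071363 to 28078662), itself a target of SREBP, had 9057, 6816 and 9784 in young and 7705, 7681 and 3716 in old libraries. Old replicate 3 was the lowest of the 6 and the other 2 old libraries lay within the young range. The log2 fold change was −0.49 ± 0.29 (adjusted p = 0.396), and −0.14 without old replicate 3. Insig2 (chromosome 1, 121304353 to 121332589), the second Insig gene, had 3950, 3785 and 3695 in young and 4129, 4221 and 3420 in old, with a log2 fold change of 0.04 (95% interval −0.20 to 0.28), and 0.13 without old replicate 3. Stard4, which carries sterol between membranes, ranged from 1373 to 2003 over the 6 libraries, with a log2 fold change of 0.03 (−0.30 to 0.37), and 0.11 without old replicate 3.

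**Figure D3:**
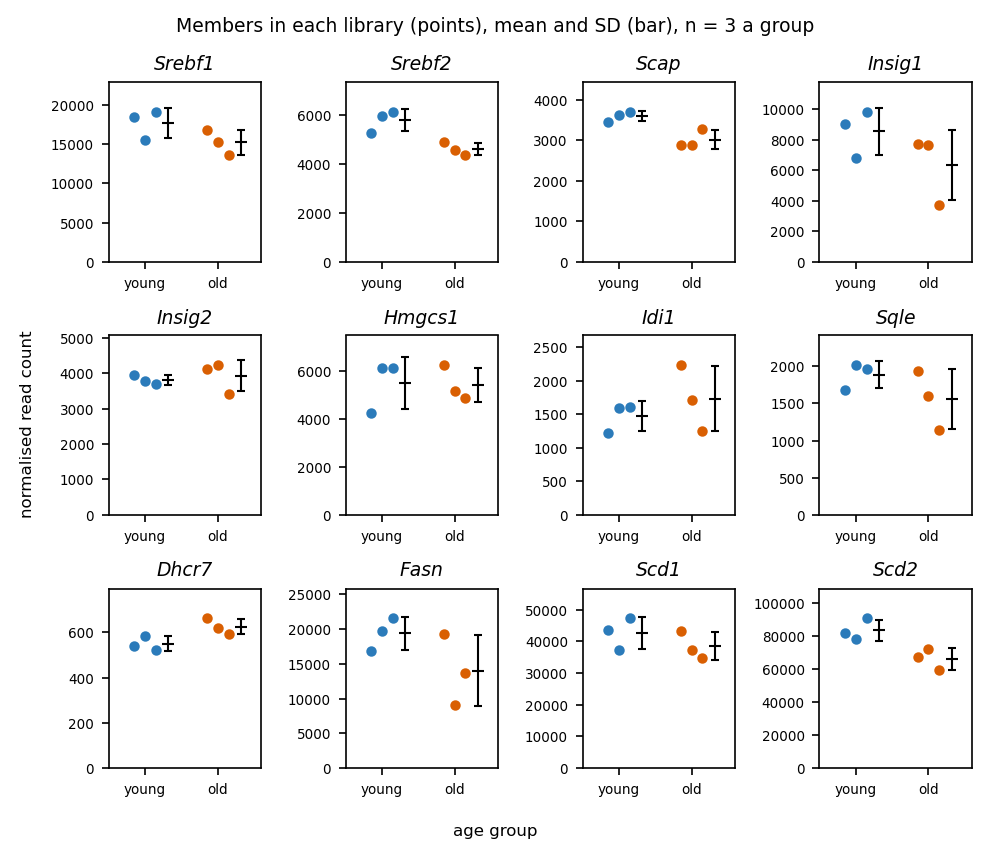
Normalised read counts of 12 genes in each library (points, in replicate order), with mean and SD beside them (n = 3 a group, axes from 0). The groups do not overlap for Srebf2, Scap, Dhcr7 and Scd2. Old replicate 3 is the lowest point for Srebf1, Srebf2, Insig1, Insig2, Sqle, Scd1 and Scd2.

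Early enzymes, from acetyl-CoA to farnesyl diphosphate, did not pass the test. Hmgcs1 (chromosome 13, 119690379 to 119708260) had 4270, 6134 and 6134 normalised read counts in young and 6236, 5189 and 4858 in old libraries. Young replicate 1 was the lowest and old replicate 1 the highest, so the spread within each age was larger than the difference of the means, and the log2 fold change was −0.01 (95% interval −0.37 to 0.35). Idi1 (chromosome 13, 8885501 to 8892451), which isomerises isopentenyl diphosphate, had 1218, 1595 and 1604 in young and 2231, 1721 and 1254 in old. Its log2 fold change was 0.21 (−0.26 to 0.68), and old replicate 3 fell among the young values while old replicate 1 lay above all. The log2 fold change of Idi1 was 0.42 without old replicate 3 and 0.01 without old replicate 1. The fold changes of Acat2, which makes acetoacetyl-CoA, of the mevalonate-phosphorylating kinases Mvk and Pmvk, of the decarboxylase Mvd and of Fdps, farnesyl diphosphate synthase, ran from −0.17 to 0.07. Without old replicate 3 the log2 fold changes were 0.33 for Fdps and 0.18 for Acat2. Fdps had the lowest level per kilobase of these and the widest interval (−0.63 to 0.63), from 154 normalised read counts in old replicate 3 to 339 in old replicate 2. Unnamed loci overlap Hmgcs1 and Idi1 exons on the opposite strand. Another unnamed locus overlaps Fdps exons on the same strand, so the reads of Fdps are uncertain.

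Later enzymes, from squalene to cholesterol, gave the same picture. Sqle (chromosome 15, 59315077 to 59331192), squalene epoxidase and a rate-controlling step, had 1682, 2011 and 1968 in young and 1940, 1595 and 1139 in old libraries. The groups overlapped, with a log2 fold change of −0.31 ± 0.18 (adjusted p = 0.384), and −0.10 without old replicate 3. Dhcr7 (chromosome 7, 143823145 to 143848410), which carries out the last reduction of the Kandutsch-Russell branch, had 541, 586 and 524 in young and 662, 619 and 595 in old. It was the only gene of the 30 whose old values all lay above the young ones, against 13.2% of all genes. Its log2 fold change was 0.18 ± 0.12 with a limma adjusted p of 0.441 and an edgeR adjusted p of 0.418. The other 9 were squalene synthase (Fdft1), the lanosterol-forming cyclase (Lss) and enzymes that demethylate, reduce, isomerise or desaturate the sterol (Cyp51, Tm7sf2, Msmo1, Nsdhl, Hsd17b7, Ebp and Sc5d), with log2 fold changes from −0.30 to 0.10. Tm7sf2, a sterol reductase, had the smallest p of all 18 sterol enzymes (unadjusted p = 0.0932, log2 fold change −0.30 ± 0.16). Cyp51, lanosterol demethylase, had the largest spread within groups of the 18, from 652 in old replicate 3 to 1405 in old replicate 1, and its log2 fold change was −0.14, or 0.10 without old replicate 3. Reads of Fdft1 and Cyp51 are uncertain because Ctsb and Akap9 overlap them on the opposite strand, as are those of Lss and of Tm7sf2, which overlaps Vps51.

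The sterol enzymes differed between libraries of the same age, mostly in the same order. Among the old libraries, replicate 3 was the lowest for 15 of the 18 enzymes, where it was the lowest for 38.3% of the 11201 genes with a mean of at least 200. Old replicate 1 was the highest and old replicate 3 the lowest for 12 of the 18, against 17.4% of those genes. These 12 were Acat2, Hmgcs1, Mvd, Idi1, Fdft1, Sqle, Cyp51, Msmo1, Nsdhl, Hsd17b7, Sc5d and Dhcr7. For 9 of the 18 enzymes, this order in old went with young replicate 1 as the lowest young library. Of the 11201 genes, 8.05% had both. The mean of the 18 enzymes on the log2 scale lay −0.11, 0.07 and 0.03 from the young mean in young replicates 1, 2 and 3. In old replicates 1, 2 and 3 it lay 0.16, 0.01 and −0.29 from it. The median SD within groups was 0.20 for the sterol enzymes on the log2 scale, 0.14 for the regulators and carriers, 0.15 for the fatty acid enzymes and 0.16 for genes with a mean of at least 200. Enzymes of 1 pathway in 1 library are not independent, and these counts were made after the values were seen and have no test. In old replicates 1, 2 and 3, neutrophil markers summed to 5787, 805 and 11286. In the same order, myelin markers summed to 33152, 43241 and 47596 and fibrocyte markers to 625033, 966875 and 463122. The part of these markers in the pattern was not tested.

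**Figure D4:**
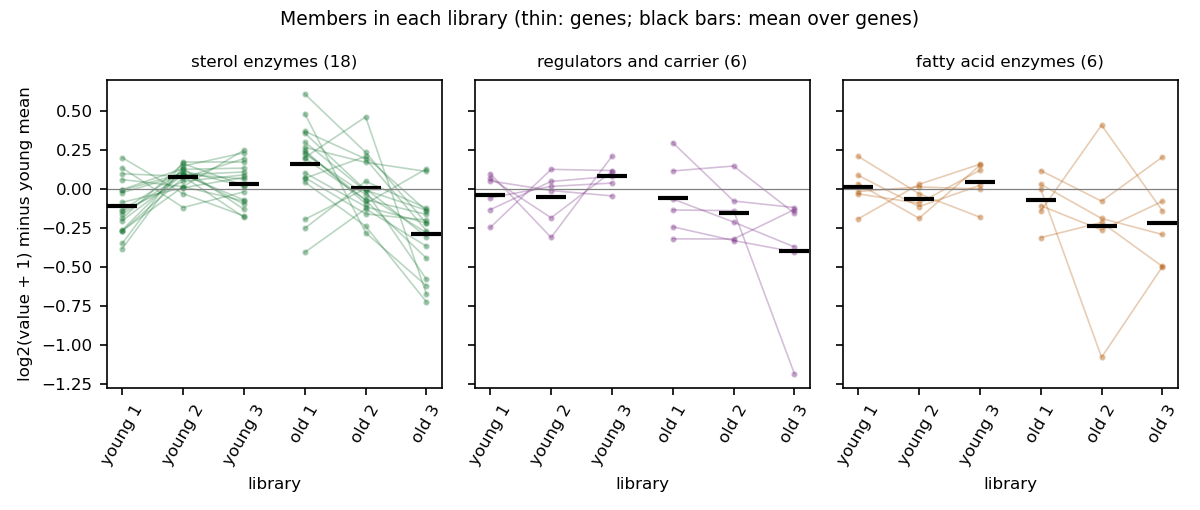
Deviation of each gene from its young mean, as log2(value + 1), in the 6 libraries, by group of genes (thin lines join a gene's values within an age, black bars are means over genes). The sterol enzymes are centred at 0.16 in old replicate 1 and at −0.29 in old replicate 3, and the regulators are lowest in old replicate 3, where Insig1 is the far point.

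Fatty acid enzymes were led by Scd2 and Fasn. Scd2 (chromosome 19, 44293674 to 44306864), the desaturase gene known from brain and myelin-forming cells, had 81469, 78154 and 90522 normalised read counts in young and 67073, 71756 and 58996 in old libraries. All old values lay below all young ones, with a log2 fold change of −0.34 ± 0.12, or −21.0%. The limma adjusted p was 0.14, the edgeR adjusted p 0.156 and the DESeq2 adjusted p 0.0496, just under the threshold. Without old replicate 3 the log2 fold change of Scd2 was −0.26 (limma adjusted p = 0.193). Myelinating Schwann cell markers had a median log2 fold change of 0.95, and their part in the Scd2 values was not tested. Scd1 (chromosome 19, 44394455 to 44407879), its neighbour and close paralogue, had 43547, 37338 and 47276 in young and 43447, 37317 and 34748 in old. The groups overlapped and the log2 fold change was −0.15 (95% interval −0.44 to 0.14), and −0.08 without old replicate 3. How reads shared by the desaturase paralogues were counted is not stated, so the split between Scd1 and Scd2 is uncertain.

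Fasn (chromosome 11, 120805846 to 120824547) had 16906, 19713 and 21554 in young and 19281, 9131 and 13671 in old libraries. Old replicates 2 and 3 lay below all young libraries and old replicate 1 among them, and the log2 fold change was −0.53 ± 0.24 (limma adjusted p = 0.263, edgeR 0.306). Without old replicate 1, the adjusted p of Fasn was 0.0504, the lowest that any of the 30 genes reached when 1 library was left out, and the log2 fold change was −0.79. Without old replicate 2 the log2 fold change of Fasn was −0.25 (adjusted p = 0.444), and without old replicate 3 it was −0.54. Over the 6 runs its adjusted p went up to 0.571. Acly and Acaca, which supply acetyl-CoA and malonyl-CoA, had log2 fold changes of −0.15 (−0.37 to 0.08) and 0.08 (−0.18 to 0.34). Elovl6 (chromosome 3, 129532355 to 129638495) had 461, 390 and 351 in young and 361, 530 and 361 in old, a log2 fold change of 0.04 (−0.39 to 0.48), and 0.13 without old replicate 3. With quantile normalization the median of the 6 fatty acid enzymes was −0.03 in place of −0.15.

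Neighbouring lipid pathways were counted in 7 further lists, in which limma called 6 genes, 4 higher and 2 lower. No gene was called in 4 lists: of the 13 other sterol and isoprenoid genes, the 11 of SREBP processing, the 23 of fatty acid elongation, desaturation and activation and the 19 of fatty acid oxidation, 1, 2, 8 and 1 had an unadjusted p under 0.05, where 21.3% of all genes had one. EdgeR called 0 in each of them. In the elongation list, 1 gene was higher and 1 lower by the authors' deposited table, and 0 were called in the other 3. In the elongation list the smallest p was that of Elovl7, an elongase, with a log2 fold change of 0.47 ± 0.12 and a limma adjusted p of 0.0515. In the oxidation list it was that of Ppara, a lipid-sensing receptor, with −0.48 ± 0.17 and 0.157. Elovl7 passed with quantile normalization (0.0326), with DESeq2 (0.0103), without young replicate 1 (0.033) and without old replicate 2 (0.0401). The medians of the 4 lists, in the order given, were 0.01, −0.14, −0.07 and 0.05.

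The 6 genes called by limma came from the lists of sterol uptake, efflux and storage, of glycerolipid synthesis and of acetyl-CoA and NADPH supply. Of 23 genes of sterol uptake, efflux and storage, 2 rose and 1 fell, with a median of 0.01. Lrp1 (chromosome 10, 127538161 to 127621148), an endocytic receptor for lipoproteins and many other ligands, had 20085, 22113 and 23510 normalised read counts in young and 12304, 13476 and 13808 in old libraries. It fell by 0.73 ± 0.10 on the log2 scale (limma adjusted p = 0.00602). Lipa (chromosome 19, 34492318 to 34527474), the lysosomal acid lipase that frees cholesterol from its esters, had 1179, 1250 and 1187 in young and 1602, 1726 and 2080 in old, a rise of 0.57 ± 0.12 (adjusted p = 0.0293). Ch25h (chromosome 19, 34473778 to 34475164), which makes 25-hydroxycholesterol, an oxysterol that blocks SREBP processing, had 18.9, 28.0 and 30.6 in young and 92.1, 94.6 and 194 in old. It rose by 2.19 ± 0.36 (adjusted p = 0.012). An unnamed locus overlaps Ch25h on the opposite strand. Macrophages express Lipa and Ch25h, and macrophage markers summed to at least 66344 in every old library and at most 40108 in any young one. Gpnmb was the largest part of that sum in every library. The part of macrophages in these rises was not tested.

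**Figure D5:**
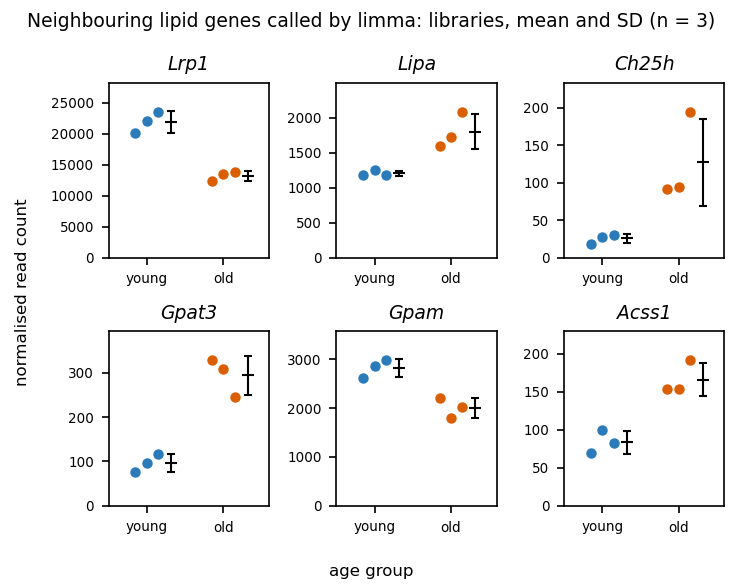
Normalised read counts of the 6 neighbouring lipid genes called by limma in each library (points), with mean and SD (n = 3 a group, axes from 0). Old values lie wholly below young ones for Lrp1 and Gpam and wholly above them for Lipa, Ch25h, Gpat3 and Acss1.

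Glycerolipid genes split in direction. Of 19 genes of glycerolipid synthesis and lipid droplets, 1 rose and 1 fell, both acyltransferases for the first step of triglyceride synthesis. Gpat3 (chromosome 5, 100845713 to 100899102), an isoform of the endoplasmic reticulum, had 75.5, 96.5 and 116 in young and 328, 308 and 245 in old libraries, a rise of 1.61 ± 0.22 (limma adjusted p = 0.0059). Gpam (chromosome 19, 55067268 to 55127238), the mitochondrial isoform and a known SREBP-1 target, had 2616, 2863 and 2973 in young and 2199, 1787 and 2014 in old. It fell by 0.50 ± 0.11 (adjusted p = 0.0338). Among 12 genes of acetyl-CoA and NADPH supply, Acss1 (chromosome 2, 150618105 to 150668500), a mitochondrial acetyl-CoA synthetase, had 69.2, 99.6 and 82.7 in young and 153, 153 and 191 in old, a rise of 0.98 ± 0.23 (adjusted p = 0.0407). The calls of Lipa and Gpam were lost without young replicates 1, 2 or 3 or old replicate 3, that of Gpam also without old replicate 2, and that of Acss1 without any 1 of the 6 libraries (adjusted p up to 0.128, 0.166 and 0.155). Those of Lrp1, Ch25h and Gpat3 held in all 6 runs without 1 library (adjusted p up to 0.046, 0.0424 and 0.0281). Unnamed loci overlap Gpat3 and Acss1 exons on the opposite strand, and Gpat3 exons on the same strand too.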

How the data were processed

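RNA was sequenced from the lateral walls of 6 mice, 1 library per mouse, prepared with the TruSeq RNA kit per the labels' protocols. The submitters' processing notes list Partek, TopHat2, DESeq2 and mm10 with no role for each. Annotation, counting and strandedness: not given in the sources used here. Library values were deposited as a signal that the authors made by scaling each gene's reads with 1 size factor per library. Dividing by the value of 1 read gave whole numbers (tolerance 0.1) for 99.9% of values. Beside them stand the authors' p-value, adjusted p-value (absent for 332 genes) and signed fold change, a deposited score.

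Values were tested as log2(value + 1) with limma 3.58.1 (trend, robust, R 4.3.3) over 17091 genes; a mean of at least 1 removed 0 genes. EdgeR 4.0.16 and DESeq2 1.42.0 were run on recovered reads as alternatives. The main limma fit, edgeR with TMM and DESeq2 were also tested on simulated data, and the other alternatives were not. No permutation test was used, since 3 against 3 can reach p = 0.1 at the least. Exon lengths and positions come from GENCODE M21 (GRCm38, the assembly mm10 names). The members and lists were chosen with earlier results of these data known. All 30 are accounted for, and those with an unadjusted p under 0.05 and a set of regulators and key enzymes are given by library. From each neighbouring list the called genes are named, or else the gene with the smallest p, and some of these are not reported here. Alternatives were pseudocounts of 0.1 and 10, a mean of at least 10 or no filter, quantile normalization, no trend, a replicate block, each library left out, and the count tests. Mice are the replicates. No 2 libraries matched within sampling noise (chi-square per degree of freedom at least 18.5). Precision is limited by the spread between libraries, which exceeded counting error, and by n = 3.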

Additional observations from a re-analysis of the deposited data

How the results depend on the processing

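No gene of the 30 was called under any limma or edgeR alternative. DESeq2 and the authors' deposited table called 2, both lower. The count of all genes, 898, was 337 without trend, 1819 with DESeq2, 1818 in the authors' deposited table and 230 to 1136 without 1 library. The replicate block gave 406 genes and 0 of the 30. Deviations of same-numbered young and old libraries correlated at −0.186, −0.0859 and −0.107, so the numbers share no more than a name. In the neighbouring lists, 4 higher and 2 lower became 2 and 1 without trend and with the block, 7 and 6 with DESeq2 and in the authors' table, and 2 to 5 and 1 to 3 without 1 library. The fatty acid median was −0.0276 with quantile normalization, and −0.22 to −0.10 without 1 library. Some uncalled fold changes crossed 0. Fdps had 0.0002 with a pseudocount of 10, 0.0756 with edgeR TMM, 0.0697 with edgeR on DESeq2 size factors and with DESeq2 and 0.0704 in the authors' deposited table. Hmgcs1 had 0.0525 with quantile normalization. Ranges without 1 library were −0.0711 to 0.18 for Acat2, −0.18 to 0.0766 for Hmgcs1, −0.24 to 0.33 for Fdps, −0.0363 to 0.28 for Fdft1, −0.0392 to 0.19 for Lss, −0.45 to 0.10 for Cyp51, −0.30 to 0.14 for Msmo1, −0.16 to 0.10 for Hsd17b7, −0.0349 to 0.14 for Ebp, −0.26 to 0.0827 for Sc5d, −0.0192 to 0.13 for Insig2, −0.10 to 0.11 for Stard4 and −0.14 to 0.15 for Elovl6. The lowest count of all genes came without young replicate 3. The cause was not tested for any of these.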
